A study of Mus musculus with 3 samples.

Results

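Cxcl9-expressing lymphatic endothelial cells of the mouse small intestine were 118 cells with 3 or more Cxcl9 UMIs (unique molecular identifiers, each standing for 1 captured RNA molecule), of 17975 lymphatic endothelial cells (LEC). They came from 24541 barcodes, of which 22534 passed quality filters (500 or more genes seen, mitochondrial share of UMIs no higher than 15%). A cell was taken as a LEC when it had at least 1 Prox1 UMI, at least 5 Lyve1 UMIs, none of Ptprc (CD45, a leukocyte antigen) or Epcam (an epithelial adhesion molecule), and at most 2 of Dcn (a fibroblast proteoglycan). The cells are called Cxcl9 LEC here. They were set against 16436 LEC of the same libraries with no UMI of Cxcl9 or Cxcl10, called negative LEC. The other groups were 499 LEC with 3 or more Cxcl10 UMIs and no Cxcl9 UMI (Cxcl10-only LEC) and 1461 LEC with 3 or more Ifit1 UMIs and no Cxcl9 UMI (Ifit1 LEC). All groups lie within the same 3 libraries, so no treatment or genotype was compared. Each library was a pool of 4 wild-type C57Bl/6 females aged 9 to 10 weeks, from the small intestine without the duodenum. EDTA and DTT removed the epithelium before the remaining tissue was digested for 60 min at 37 °C with Liberase TL and DNase I. Live CD45-negative cells carrying CD31, an endothelial antigen, and podoplanin, a surface protein found on LEC, were sorted into 3′ droplet libraries.

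CXCL9 and CXCL10 are secreted chemokines that attract activated T cells and natural killer cells through the receptor CXCR3. Cxcl9 is known chiefly as a target of interferon-gamma, which signals through its receptor and JAK kinases. GAS and ISRE are short promoter elements of interferon-induced genes, and interferon regulatory factors bind the ISRE, which type I interferon also uses. Cd274 encodes PD-L1, the ligand that dampens T cells through PD-1. The lymphatic vessels of the intestine drain fluid, lipid and migrating leukocytes, and their endothelium can present antigen and shape T cell responses.

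The promoters of the genes that define the label, and of Gbp2 and Irf1 as targets of the pathway, are printed as examples of the windows in which motifs were counted. Each is the 250 bases before and 50 after the start of the gene, from RefSeq on GRCm38.p6, and capitals mark matches to a GAS motif (TTCNNNGAA), an ISRE motif (GAAANNGAAA) or an NF-kB motif on either strand. The Cxcl9 window lies at chr5:92328030-92328329 and the Cxcl10 window at chr5:92348840-92349139, both on the minus strand. The Cd274 window lies at chr19:29367188-29367487, that of Gbp2 at chr3:142620413-142620712 and that of Irf1 at chr11:53769764-53770063, all on the plus strand.
Cxcl9: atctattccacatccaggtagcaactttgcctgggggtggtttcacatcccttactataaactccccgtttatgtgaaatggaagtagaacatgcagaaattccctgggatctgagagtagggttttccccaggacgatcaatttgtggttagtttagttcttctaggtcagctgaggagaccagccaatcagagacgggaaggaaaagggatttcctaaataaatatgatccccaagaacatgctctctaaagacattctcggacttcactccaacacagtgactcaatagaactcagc
Cxcl10: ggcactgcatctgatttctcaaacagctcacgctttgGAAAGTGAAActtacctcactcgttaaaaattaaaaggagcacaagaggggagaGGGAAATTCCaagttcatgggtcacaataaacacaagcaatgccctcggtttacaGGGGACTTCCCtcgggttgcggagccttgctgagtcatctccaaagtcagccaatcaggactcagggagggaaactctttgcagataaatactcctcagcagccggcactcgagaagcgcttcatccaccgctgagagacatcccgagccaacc
Cd274: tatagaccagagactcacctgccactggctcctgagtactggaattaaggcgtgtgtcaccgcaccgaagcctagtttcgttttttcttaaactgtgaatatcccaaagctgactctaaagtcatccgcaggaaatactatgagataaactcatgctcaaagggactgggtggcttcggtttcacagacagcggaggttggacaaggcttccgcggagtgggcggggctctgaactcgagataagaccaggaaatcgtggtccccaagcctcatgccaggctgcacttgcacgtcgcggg
Gbp2: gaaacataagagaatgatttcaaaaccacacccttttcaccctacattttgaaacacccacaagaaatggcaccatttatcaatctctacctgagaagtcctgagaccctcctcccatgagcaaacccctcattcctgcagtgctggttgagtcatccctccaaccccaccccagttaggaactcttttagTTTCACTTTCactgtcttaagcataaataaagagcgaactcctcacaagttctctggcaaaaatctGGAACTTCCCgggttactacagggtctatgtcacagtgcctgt
Irf1: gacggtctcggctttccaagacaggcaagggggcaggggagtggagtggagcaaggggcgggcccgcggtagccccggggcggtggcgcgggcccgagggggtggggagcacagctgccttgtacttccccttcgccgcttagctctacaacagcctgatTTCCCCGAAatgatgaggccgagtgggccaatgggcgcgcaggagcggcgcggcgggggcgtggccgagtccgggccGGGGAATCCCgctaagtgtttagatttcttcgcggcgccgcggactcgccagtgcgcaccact
The Cxcl10 window held 1 ISRE match, starting 213 bases before the gene start, and 3 NF-kB matches, starting 159, 104 and 103 bases before it, of which the last pair overlap. The Gbp2 window held 1 ISRE match 59 bases before the start and 1 NF-kB match after it. The Irf1 window held 1 GAS match 90 bases before the start and 1 NF-kB match. The Cxcl9 and Cd274 windows held none, which says only that these letters are not in these windows.

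Cxcl9 LEC numbered 28 of 5570 LEC in library 1, 32 of 4454 in library 2 and 58 of 7951 in library 3. Their share was 0.503% (exact 95% binomial interval 0.334 to 0.726) in library 1, 0.718% (0.492 to 1.01) in library 2 and 0.729% (0.554 to 0.942) in library 3, a mean of 0.650% ± 0.128 (SD, n = 3 libraries). These intervals overlap, and they cover counting error only. Cxcl9 LEC held 93.8% of all Cxcl9 UMIs of LEC, while 150 other LEC had 1 or 2 UMIs, 77 of them in library 2. Within Cxcl9 LEC the count per cell was 3 at the lowest, 10 at the median and 206 at the highest. Of the 118 cells, 37 had 3 to 5 UMIs, 41 had 20 or more and 6 had 100 or more.

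A cut on UMIs favours deep cells. Cxcl9 LEC had median totals of 10555, 7785.5 and 9011.5 UMIs in libraries 1, 2 and 3, against 8051, 7013.5 and 6698 in negative LEC. With every cell thinned to 3000 UMIs, 14 of 5413, 19 of 4331 and 38 of 7780 LEC kept 3 or more Cxcl9 UMIs, a mean share of 0.395% ± 0.121 (SD, n = 3 libraries). Over the 3 libraries this was 71 of 17524 thinned LEC (0.405%), against none of 566 thinned epithelial cells (3 or more Epcam UMIs), which allows a share of such cells of up to 0.530% (3 of 566). The share with at least 1 Cxcl9 UMI was 0.976% of thinned LEC and 0.883% of thinned epithelial cells, and the exact 95% interval of the epithelial share (5 of 566 cells, 0.287 to 2.05%) holds both, so that the shares with a single UMI were not told apart at this depth. Before thinning, 3 or more Cxcl9 UMIs were seen in 0.656% of LEC at a median of 7205 UMIs and in 0.684% of epithelial cells (4 of 585) at a median of 25550 UMIs. Summed over cells, Cxcl9 stood at 20.6 CPM (the gene's share of all UMIs of those cells, on the usual scale) in LEC and 1.64 CPM in epithelial cells.

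LEC were not the richest in Cxcl9 among the cells of these libraries. Its level was 17.9, 20.7 and 22.8 CPM in LEC of libraries 1, 2 and 3, against 179, 273 and 222 CPM in 217 macrophages (C1q genes and Ptprc). In 597 fibroblasts (5 or more Dcn UMIs) it was 533, 190.2 and 90.1 CPM, and in 133 blood endothelial cells (Plvap and Vwf) 36.1, 167 and 80.6 CPM. Both lay above LEC in each library, but varied widely between libraries. In library 1 the blood endothelial value was 8 UMIs in 1 of 34 cells, and the fibroblast value came from 5 of 76 cells. After thinning, 3 or more Cxcl9 UMIs were held by 6.22% of the macrophages, 5.74% of the blood endothelial cells and 4.15% of the fibroblasts, against 0.405% of LEC. Ifng, the gene of interferon-gamma, had no UMI in 17975 LEC, which allows a share of LEC with an Ifng UMI of up to 0.0167% (3 of 17975) and does not limit the share expressing it at this depth. It had 41 UMIs in 19 of 128 T or innate lymphoid cells and 13 UMIs in 3 of 217 macrophages, all 3 in library 2. The sort was made against leukocytes and toward CD31 and podoplanin, so the cells outside LEC are those that passed it.

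The libraries held 58857545, 69231794 and 74571090 UMIs, and pairs of them shared 19, 13 and 30 barcodes, 1 of which belongs to a Cxcl9 LEC. With the library as a block, p-values measure how the difference within a library varied over these 3 libraries, not the spread between libraries. edgeR also shares its estimates of spread among genes, so a very small p-value does not stand for close agreement of many replicates. The labels do not say whether the pools came from separate rounds of animals, so the spread measured may be technical. The label was checked on genes outside the gate. Ccl21a, which the sort did not use either, stood at 11435, 9962 and 10345 CPM in Cxcl9 LEC, against 10219, 11760 and 9409 CPM in negative LEC, and the groups overlapped (counts of Ccl21a and its near copies may be split). Pdpn, the sorted antigen, stood at 232, 175 and 212 CPM in Cxcl9 LEC, against 264, 261 and 249 CPM in negative LEC, lower in 3 of 3 libraries with an edgeR adjusted p of 0.166. Mmrn1, usually a gene of LEC, was listed at 0 in all 4 groups of LEC, so its row may not hold its RNA and checks nothing here. Reln and Flt4, also markers of LEC, were lower in Cxcl9 LEC. They are given below with the lymphatic identity list, in which 8 of 24 tested genes were lower and 0 higher.

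Markers of other cells were mostly at or near the level of negative LEC. None of 14 T or innate lymphoid markers had a UMI in Cxcl9 LEC, and their summed level in negative LEC was 0.338 to 2.92 CPM. Of 16 macrophage markers 10 had a UMI, with a summed level of 256 to 350 CPM in Cxcl9 LEC and 287 to 311 CPM in negative LEC, and C1qa, Adgre1 and Cx3cr1 were at 0. Of 10 dendritic cell markers 4 had a UMI, and the sums were 206 to 325 CPM and 213 to 253 CPM, with Itgax, Flt3 and Ccr7 at 0. Blood endothelial markers, 10 of 12 with a UMI, summed to 526 to 1280 CPM in Cxcl9 LEC and 697 to 766 CPM in negative LEC. Fibroblast markers, 8 of 10 with a UMI, summed to 3.42 to 121 CPM and 5.01 to 21.7 CPM. The excess of these lay in 3 cells, 1 in library 2 with 31998 UMIs and a pair in library 3 with 27438 and 13283 UMIs. They held 467 of the 483 UMIs that Cxcl9 LEC had over 11 blood endothelial, mural and fibroblast genes. Blood endothelial markers were higher in 6 of 8 tested cases and lower in 2 (median log2 fold change 2.98). Without LEC that had 3 or more UMIs of those 11 genes (3 Cxcl9 LEC and 82 negative LEC), 0 of 4 were higher and 2 lower. Plvap, Vwf, Ackr1, Flt1 and Nrp1 are both blood endothelial markers and among the 11 genes, so their loss follows from the choice of LEC left out. Without such LEC 419 of the 509 genes called higher against negative LEC and 230 of the 273 called lower were still called. Values without them are given for lists whose count against negative LEC moved by more than 2 genes.

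Cxcl9 LEC varied in Cxcl10, the neighbouring CXCR3 ligand. It had no UMI in 59 of 118 Cxcl9 LEC (exact 95% interval of the share 40.7 to 59.3%) and 3 or more in 45, with up to 252 in 1 cell. Cd274 had at least 1 UMI in 70 cells (59.3%), and Cd74, the class II invariant chain, in 99 (83.9%). Gbp2, an interferon-induced guanylate-binding GTPase, had a UMI in 116 of 118. Cxcl9, Cxcl10 and Cd274 define the groups or their label, so their levels are given with no test. Cd274 stood at 496, 273 and 285 CPM in Cxcl9 LEC, against 38.7, 50.9 and 40.9 CPM in negative LEC. Cxcl10 stood at 3537, 1486 and 1391 CPM in Cxcl9 LEC, against 1105, 1268 and 1049 CPM in Cxcl10-only LEC, which were chosen for it.

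Cxcl9 LEC with and without a Cxcl10 UMI differed in some interferon genes and not in others, a description with no test because the split uses measured values. Cxcl9 itself stood at 3953, 2730.2 and 2408 CPM in the 59 cells with Cxcl10, against 1275, 1017 and 1907 CPM in the 59 without, so the split is also one by Cxcl9 level. Irf1, a transcription factor of the interferon response, stood at 1694, 1300 and 1334 CPM in the 59 cells with Cxcl10, against 579, 542 and 589 CPM in the 59 without. Negative LEC had 493, 569 and 613 CPM, which overlaps the values without Cxcl10. Socs1, a feedback inhibitor of JAK kinases, stood at 99.0, 102 and 140 CPM with Cxcl10, against 24.8 to 35.0 CPM over the libraries without. Cd274 showed the same order, with 815, 401 and 487 CPM with Cxcl10, against 41.4, 83.4 and 105 CPM without. Ccl2, a monocyte attractant, stood at 1432, 673 and 433 CPM with Cxcl10, against 66.2, 41.7 and 487 CPM without, so library 3 did not share the order. Isg15, a ubiquitin-like interferon product, stood at 2212, 1187 and 1574 CPM with Cxcl10, against 737, 834 and 656 CPM without.

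The class II genes did not follow Cxcl10. Cd74 stood at 733, 1532 and 944 CPM in Cxcl9 LEC with Cxcl10, against 1663, 1218 and 1153 CPM in those without, and both lay above negative LEC (64.7, 200 and 124 CPM). H2-Ab1, a class II chain, stood at 355, 560 and 411 CPM with Cxcl10, against 306, 484 and 544 CPM without. Gbp2 lay between, at 3085, 1566 and 1975 CPM with Cxcl10, against 844, 776 and 1312 CPM without and 316, 374 and 352 CPM in negative LEC. Ccl21a, the chemokine that guides dendritic cells into lymphatics, was lower with Cxcl10, at 8446, 7620 and 9244 CPM, against 15683, 13418 and 11324 CPM without. The median total was 9362 UMIs with Cxcl10 and 8478 UMIs without, and a cell with no Cxcl10 UMI at this depth may still hold its RNA.

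**Figure D1:**
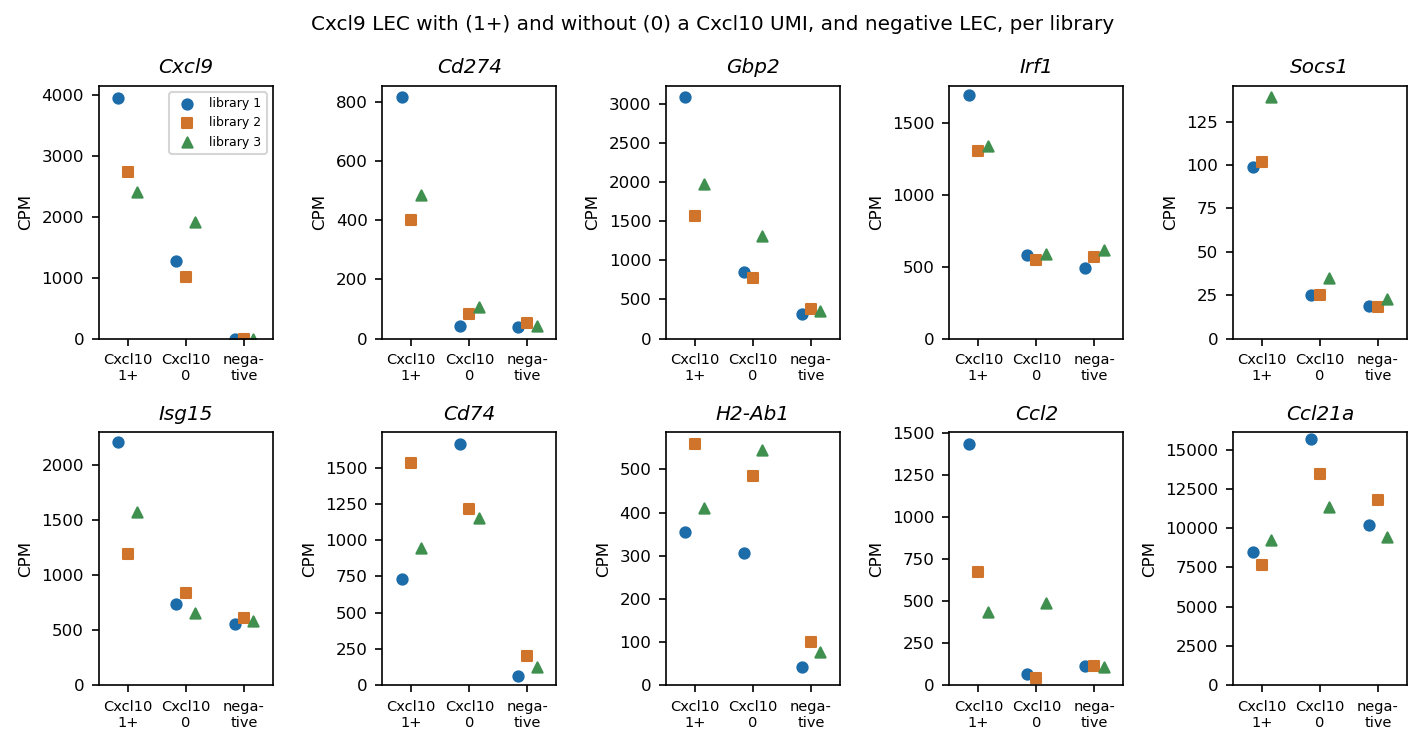
Level in CPM (linear axes from 0) of 10 genes in Cxcl9 LEC with 1 or more Cxcl10 UMIs, in Cxcl9 LEC with none and in negative LEC, 1 point per library. Irf1 and Socs1 without Cxcl10 sit near negative LEC, while Cd74 and H2-Ab1 stay high in both kinds of Cxcl9 LEC.

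Against negative LEC, the first question was which other genes went along with Cxcl9. Negative LEC were also chosen for having no Cxcl10 UMI, while 59 of 118 Cxcl9 LEC had 1 or more. This comparison therefore does not separate genes that go with Cxcl9 from those that go with Cxcl10. Of 12319 genes tested, 509 were higher and 273 lower in Cxcl9 LEC at an adjusted p under 0.05, which is 4.13% and 2.22% of them (6.35% in both directions), and the median log2 fold change of all genes was -0.06. Among the lists of interferon and antigen presentation genes, class II presentation had the highest median and the interferon-induced GTPases the next. Sums of UMIs per library and group of cells were tested with edgeR, with the library as a block. With DESeq2 in place of edgeR (its own test, dispersions and size factors) the calls were 365 higher and 61 lower. Without library 3, which holds 58 of the 118 Cxcl9 LEC, 213 genes were called in all (169 higher and 44 lower), and the higher genes numbered 17 of the GTPase list and 6 of the class II list, but 15 of the type I list, 8 of the class I list and 7 of the NF-kB list. Without library 1 the NF-kB list had 9 genes higher.

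In the receptor and JAK-STAT list, 12 of 16 tested genes were higher and none lower, with a median log2 fold change of 0.74. Irf1 stood at 1234, 994 and 940 CPM in Cxcl9 LEC, against 493, 569 and 613 CPM in negative LEC (log2 fold change 0.93 ± 0.09 with its approximate SE, adjusted p = 3.14e-23, higher in 3 of 3 libraries). In the 59 Cxcl9 LEC without a Cxcl10 UMI it stood at 579, 542 and 589 CPM, which overlaps negative LEC. Ifngr1, the ligand-binding chain of the interferon-gamma receptor, rose by 0.72 ± 0.12 (adjusted p = 2.85e-08), while Ifngr2, the other chain, differed by 0.11 and did not pass. Ciita, the master activator of class II genes, stood at 37.6, 27.0 and 52.2 CPM, against 3.72, 5.37 and 5.45 CPM in negative LEC (3.04 ± 0.43, adjusted p = 2.99e-10). Irf8, an interferon regulatory factor best known in myeloid cells, rose by 2.31 and was seen in 83 of 118 cells. The feedback inhibitor Socs1 rose by 1.91, and Irf2 and Irf9 did not pass.

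Of the interferon-gamma GTPases, which attack vacuoles of intracellular pathogens, 19 of 20 tested genes were higher and none lower, with a median log2 fold change of 1.70. Gbp2 stood at 2160, 1247 and 1624 CPM in Cxcl9 LEC, against 316, 374 and 352 CPM in negative LEC. The lowest Cxcl9 LEC value was above the highest value of negative LEC, and the log2 fold change was 2.27 ± 0.09 (adjusted p = 2.45e-142). Gbp5 rose by 2.68 and Gbp10 by 2.49, the largest of the list. Iigp1, an immunity-related GTPase, stood at 2341, 1583 and 1058 CPM, against 463, 497 and 420 CPM in negative LEC. These genes lie in clusters of close paralogs, so that reads may be split among copies.

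Of the other interferon-gamma effectors 16 of 21 were higher and none lower, with a median of 1.37. Acod1, which makes itaconate, rose by 3.05 and was seen in 38 cells. Ubd, a ubiquitin-like modifier, had the largest value of the list (7.58), but its UMIs came from 7 cells and 41.2% of them from 1. Wars, the tryptophanyl-tRNA synthetase, stood at 195, 216 and 222 CPM in Cxcl9 LEC, against 72.8, 80.9 and 75.7 CPM in negative LEC, with no overlap. Ly6a passed with 4.47, but not without those 3 cells with stromal UMIs.

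Genes of the type I interferon response were higher in 29 of 34 tested cases and lower in none, with a median log2 fold change of 1.00. Rsad2, the antiviral enzyme viperin, stood at 1199.5, 259 and 419 CPM in Cxcl9 LEC, against 153, 132 and 99.9 CPM in negative LEC (2.15 ± 0.11, adjusted p = 6.58e-85). Library 1 was far above the others, and 18.3% of the UMIs came from 1 cell. Oasl1, an inhibitor of Irf7 translation in mice, rose by 2.57. Ifit1, which binds viral RNA, stood at 267, 232 and 222 CPM, against 93.5, 91.0 and 77.5 CPM in negative LEC (1.49 ± 0.13, adjusted p = 1.03e-27). Ifit1 had 3 or more UMIs in 23 of 118 Cxcl9 LEC (19.5%) and in 7.82% of negative LEC, so that most Cxcl9 LEC did not reach that level. Rsad2 stood at 1915, 294 and 769 CPM in Cxcl9 LEC with a Cxcl10 UMI, against 182, 208 and 108 CPM in those without. The values of Ifit1 were 396, 322 and 422 CPM with Cxcl10, against 82.8, 100 and 44.6 CPM without. For both genes the values without Cxcl10 overlapped those of negative LEC.

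**Figure D2:**
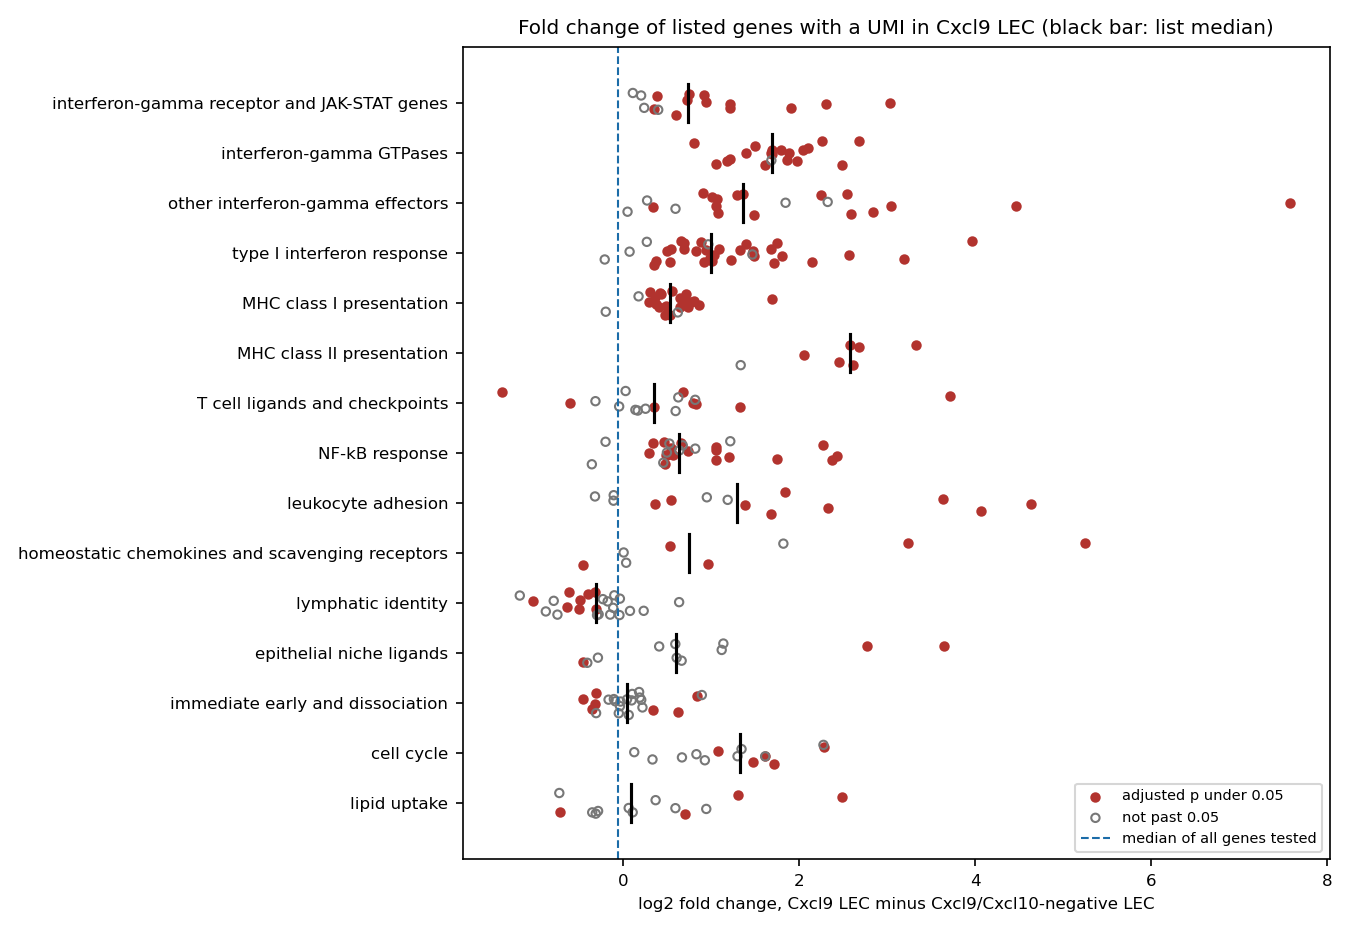
Log2 fold change of each listed gene, Cxcl9 LEC minus negative LEC, by gene list, filled where the edgeR adjusted p was under 0.05, with list medians as black bars. Class II genes lie around a median of 2.58 and lymphatic identity genes around -0.30, against -0.06 for all genes tested (dashed).

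In class I presentation the changes were smaller, with 20 of 23 tested genes higher, none lower and a median of 0.54. Tap1, a chain of the peptide transporter, stood at 390, 310 and 275 CPM in Cxcl9 LEC, against 91.2, 119 and 93.4 CPM in negative LEC, a log2 fold change of 1.69. The other chain, Tap2, rose by 0.86. B2m, the light chain of class I, stood at 4340, 3911 and 3133 CPM, against 2889, 3062 and 2521 CPM in negative LEC, and rose by 0.43 ± 0.07 (adjusted p = 3.31e-07). Of the class II list 6 of 7 tested genes were higher and none lower, with a median of 2.58. Cd74 stood at 1117, 1405 and 1055 CPM in Cxcl9 LEC, against 64.7, 200 and 124 CPM in negative LEC (3.33 ± 0.10, adjusted p = 7.29e-256). All libraries of Cxcl9 LEC lay above all of negative LEC. H2-Ab1 rose by 2.69, H2-Aa by 2.61 and H2-DMa, which loads peptide on class II, by 2.45, and all were higher in 3 of 3 libraries. Cd80 and Cd86, the costimulatory ligands of T cells, had 0 and 2 UMIs in all Cxcl9 LEC.

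Among other T cell ligands 6 of 17 tested genes were higher and 2 lower, with 2 higher without library 3 and 3 without library 1. Il15, a cytokine that sustains memory T and natural killer cells, rose by 1.33 and was seen in 18 cells, and Il18bp, the decoy of IL-18, rose by 0.83. The largest fall of the list was that of Il7, the survival cytokine of naive T cells. It stood at 37.6, 47.2 and 87.6 CPM in Cxcl9 LEC, against 159, 170 and 163 CPM in negative LEC (-1.37 ± 0.17, adjusted p = 7.87e-14). Every library of Cxcl9 LEC lay below every library of negative LEC. Fgl2, a secreted fibrinogen-like suppressor of T cells, fell by 0.60 on the log2 scale.

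Of the NF-kB response 18 of 27 tested genes were higher and none lower, with a median of 0.64. Ccl2 stood at 868, 418 and 462 CPM in Cxcl9 LEC, against 112, 112 and 105 CPM in negative LEC, a log2 fold change of 2.37. Ptgs2, the prostaglandin synthase COX-2, passed with 2.44 ± 0.28 (adjusted p = 2.39e-16), at 208, 50.5 and 23.6 CPM, against 26.9, 7.04 and 10.3 CPM in negative LEC. It rested on 15 cells, and 5 of the 8 cells with 3 or more UMIs lay in library 1. Csf1, the macrophage growth factor, rose by 1.20 and Nfkbia, the inhibitor of NF-kB, by 0.29. Leukocyte adhesion genes were higher in 9 of 14 cases, but in 5 of 12 without the 3 cells, 4 of 12 without library 2 and 2 of 15 without library 3. Vcam1, the ligand of the integrin VLA-4, stood at 27.3, 57.3 and 15.2 CPM, against 2.39, 2.72 and 2.11 CPM in negative LEC (3.63 ± 0.60, adjusted p = 8.18e-08), in 14 cells. Its log2 fold change was 3.44 without the 3 cells. Icam1, the ligand of LFA-1, rose by 0.36 ± 0.08 (adjusted p = 0.000236), and Selp, the rolling receptor P-selectin, by 1.84, or 0.98 without the 3 cells.

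Of 8 tested homeostatic chemokines and scavenging receptors 4 were higher and 1 lower. Ccl5, a T cell attractant, rose by 5.25 with UMIs in 9 cells, and Ccl19, the other CCR7 ligand beside Ccl21a, by 3.24 with UMIs in 28. Ackr2, a receptor that removes inflammatory chemokines, stood at 188, 168 and 148 CPM in Cxcl9 LEC, against 86.2, 89.3 and 82.6 CPM in negative LEC, and rose by 0.97. Ackr3, which removes CXCL12, fell by 0.45. Ccl21a differed by 0.04 ± 0.07 (adjusted p = 0.904).

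The lymphatic identity list went the other way, with 0 of 24 tested genes higher, 8 lower and a median of -0.30. The genes lower were 3 with DESeq2, 3 against negative LEC of matched depth, 2 without library 3 and 0 without the library block, with a negative median each time. Reln, a secreted glycoprotein of LEC, stood at 1326, 1344 and 1159 CPM in Cxcl9 LEC, against 1970.3, 1757 and 1745 CPM in negative LEC, without overlap. Flt4, the receptor of VEGF-C, fell by 0.31 and Kdr, the receptor of VEGF-A, by 0.40. Clca3a1, a marker of some LEC, fell by 1.02 ± 0.23 (adjusted p = 0.000307), and Itih5 differed by 0.24 and did not pass. Of 12 epithelial niche ligands 2 were higher and 1 lower. Rspo3 and Wnt2, which feed Wnt signalling of the crypt, differed by -0.28 ± 0.12 and -0.40 ± 0.15 and did not pass (adjusted p = 0.157 and 0.0800). Il33, an alarmin, fell by 0.45. Bmp2 passed with 2.77, but 64.1% of its UMIs came from 1 cell.

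Among the 23 genes of early response and tissue dissociation, 3 rose and 4 fell, and none passed without library 3, with a median of 0.05. Fos stood at 5338, 3696 and 6078 CPM in Cxcl9 LEC, against 6017, 4435 and 5600 CPM in negative LEC, and the groups overlapped (adjusted p = 0.693). Of 14 cell cycle genes 5 were higher, but Ube2c, Cenpf, Mki67 and Top2a each had 71.4% to 96.2% of their UMIs in 1 cell, and none of the list passed without library 3. Lipid uptake genes were higher in 3 of 14 cases and lower in 1. Without the 3 cells none was higher and 3 were lower, and Lpl, the lipoprotein lipase, was lower in both (-0.72 with them). Outside the lists the largest rises were those of Calhm6 (6.09), Serpina3f (5.49) and Mpeg1 (5.09), and the largest falls those of Tgfbi (-1.98), Stmn2 (-1.93) and Pmm1 (-1.79). Serpina3f, a serine protease inhibitor, stood at 150, 47.2 and 55.6 CPM in Cxcl9 LEC, against 1.06, 2.31 and 1.90 CPM in negative LEC. Mpeg1 encodes the pore protein perforin-2 of phagocytes and was seen in 11 cells.

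**Figure D3:**
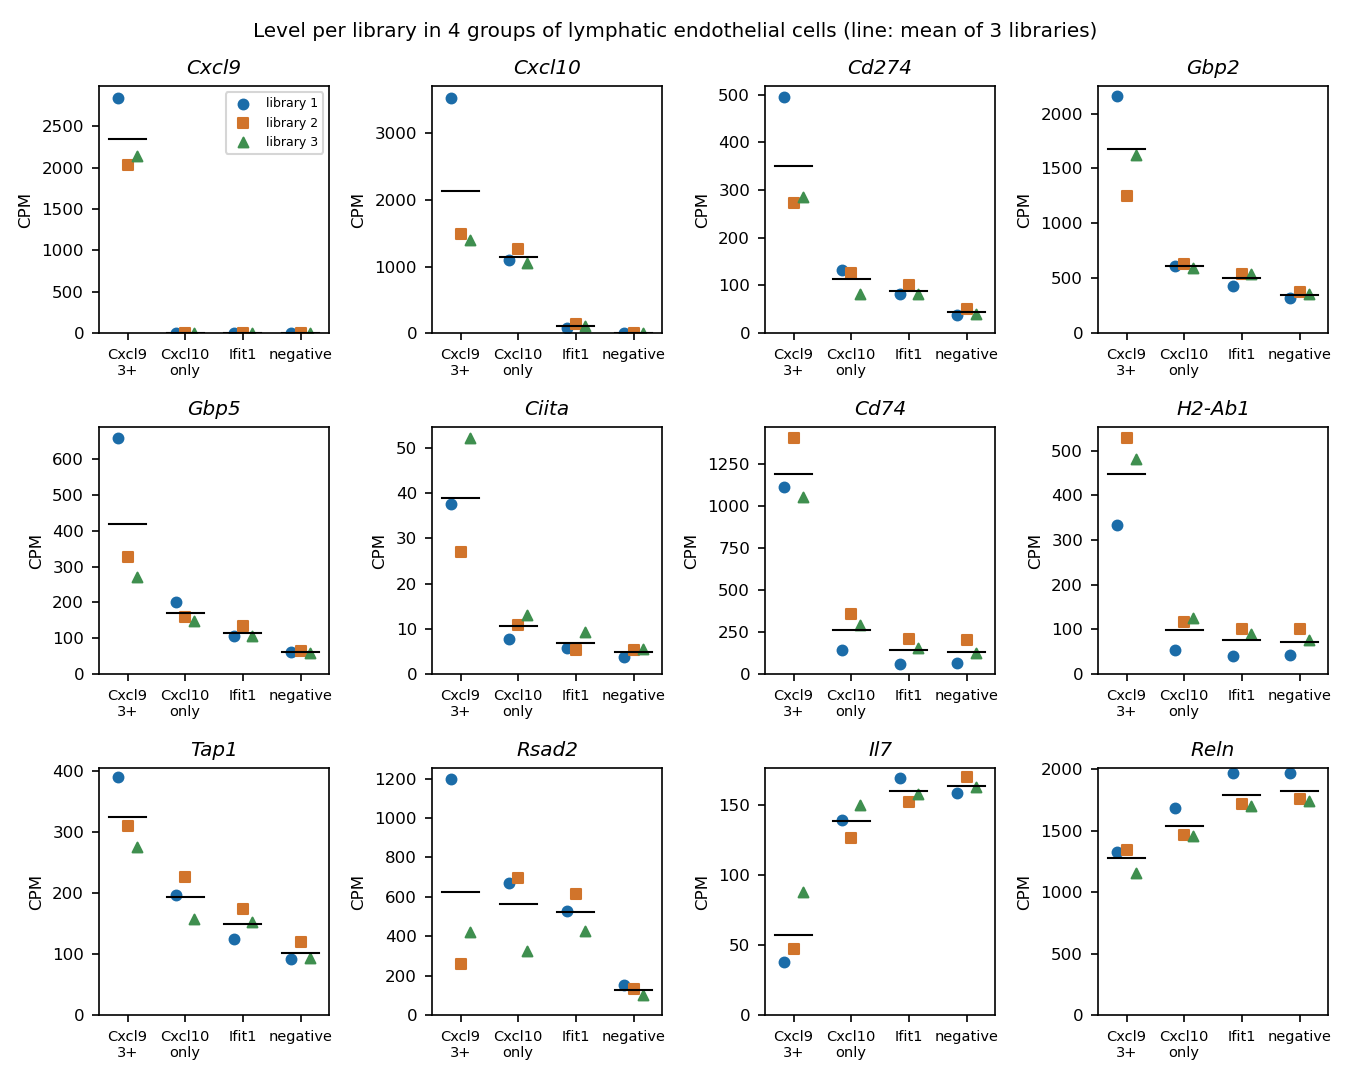
Level in CPM (linear axes from 0) of 12 genes in Cxcl9 LEC, Cxcl10-only LEC, Ifit1 LEC and negative LEC, 1 point per library and a line at their mean. Cd74, H2-Ab1 and Ciita are high in Cxcl9 LEC alone among the 4 groups shown, Rsad2 is about as high in Cxcl10-only and Ifit1 LEC, and Il7 and Reln are lowest in Cxcl9 LEC.

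The threshold of 3 UMIs cut through a gradient of levels summed over cells, which does not tell a rise within cells from a changing mix of cells. Summed over libraries, Gbp2 stood at 359 CPM in LEC with 0 Cxcl9 UMIs, 553 CPM with 1 or 2, 926 CPM with 3 to 5, 1620 CPM with 6 to 14 and 2247 CPM with 15 or more. Irf1 stood at 585, 654, 740, 1034 and 1238 CPM over the same steps, but in library 2 it was 649 CPM with 1 or 2 and 635 CPM with 3 to 5. Cd274 stood at 45.7, 93.8, 173, 392 and 418 CPM. At the last step Cd274 fell in library 1 (683 to 612 CPM) and library 2 (509 to 363 CPM) and rose in library 3 (247 to 337 CPM). Ifit1 did not follow the steps, with 91.0, 86.9, 321, 89.5 and 268 CPM. Just outside the threshold, the 30 cells with exactly 2 Cxcl9 UMIs had 880 CPM of Gbp2 and 669 CPM of Cd74. Just inside, the 18 cells with exactly 3 had 1308 CPM of Gbp2 and 996 CPM of Cd74.

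**Figure D4:**
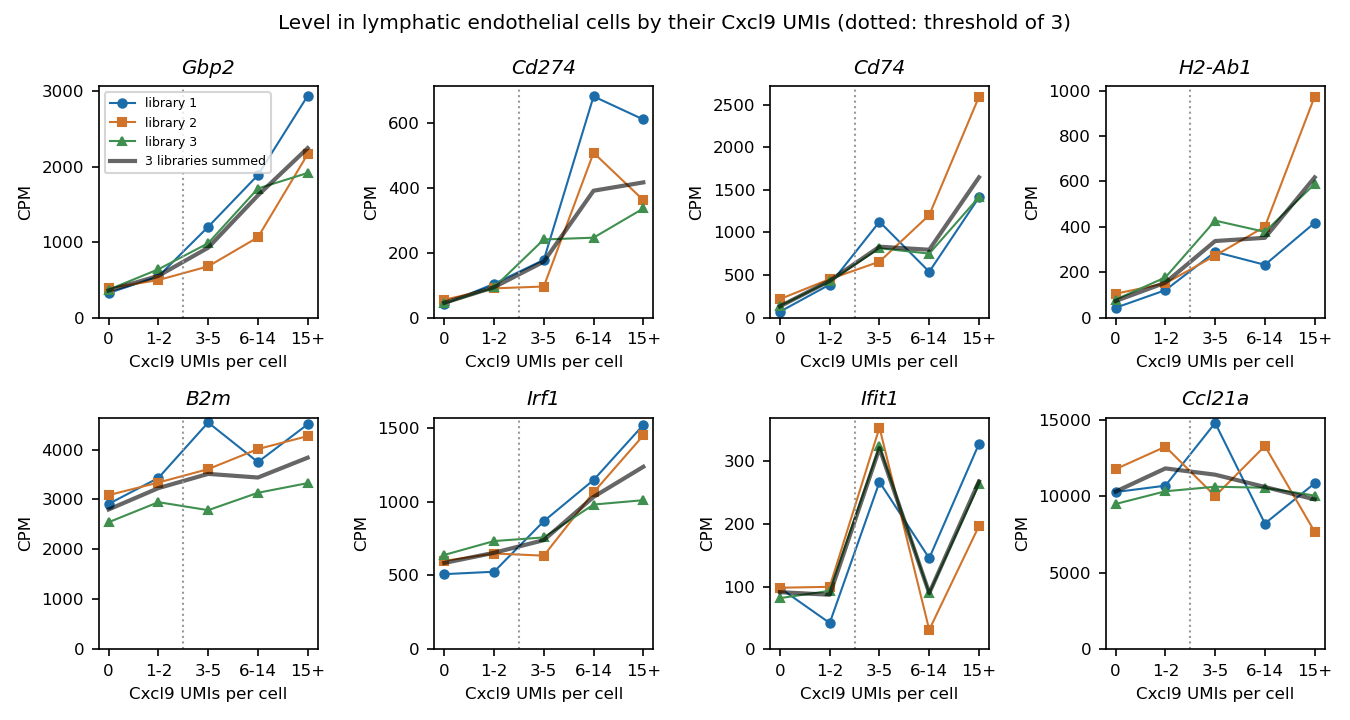
Level in CPM (linear axes from 0) of 8 genes in LEC grouped by their Cxcl9 UMIs (0, 1-2, 3-5, 6-14 and 15 or more), per library and with the libraries summed, with the threshold of 3 as a dotted line. In the summed libraries Gbp2 and Irf1 are higher at each step, Ifit1 is not, and Ccl21a stays between 9791 and 11815 CPM. Single libraries range wider for Ccl21a, from 7670 CPM (library 2, 15 or more) to 14789 CPM (library 1, 3-5).

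Cxcl10-only LEC were the nearest group by chemokine. Of 7729 genes tested 96 (1.24%) were higher and 13 (0.168%) lower in Cxcl9 LEC, or 1.41% in both directions. The number depended on the libraries, with 217 calls without library 2. Class II genes led, with 5 of 6 tested higher. Cd74 stood at 1117, 1405 and 1055 CPM in Cxcl9 LEC, against 143, 360 and 291 CPM in Cxcl10-only LEC (2.26 ± 0.16, adjusted p = 5.98e-07, higher in 3 of 3 libraries). Of the GTPases 14 of 19 were higher (9 without library 1 and 7 with DESeq2), with Gbp2 at 1.47 ± 0.13 (adjusted p = 4.47e-06). C3, the central complement protein, stood at 191, 162 and 138 CPM in Cxcl9 LEC, against 42.3, 27.5 and 24.2 CPM in Cxcl10-only LEC (2.45 ± 0.18, adjusted p = 7.83e-07), a gene singled out after its values were seen. Vcam1 rose by 2.76 (it could not be tested without the LEC with stromal UMIs), Calhm6 by 3.05 and Serpina3f by 2.81.

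Of the other interferon-gamma effectors 9 of 16 tested genes were higher than in Cxcl10-only LEC and none lower, with a median of 0.64. Of the class I list 5 of 22 were higher and none lower (median 0.38), with 13 without the LEC with stromal UMIs, 10 without library 2, 3 without library 1 and 2 without library 3. Of the receptor and JAK-STAT list 3 of 16 were higher and none lower (median 0.28), and 5 without the LEC with stromal UMIs or without library 2. In the type I list 3 of 32 tested genes were higher and none lower, with a median of 0.20, and 8 were higher without library 2 and 1 without library 1. Irf1 differed by 0.04 ± 0.12 (adjusted p = 0.970), Socs1 by -0.09 and Ifit1 by 0.20 ± 0.13 (adjusted p = 0.737). Those values average over Cxcl9 LEC with and without Cxcl10, since 59 of 118 had no Cxcl10 UMI while every Cxcl10-only LEC had 3 or more. Summed over libraries, Irf1 stood at 1423 CPM with Cxcl10 and 577 CPM without, Socs1 at 118 and 30.6 CPM, and Ifit1 at 387 and 64.9 CPM. Of the NF-kB list 2 of 26 were higher, with 4 without library 2 or 3 and 1 without library 1. Il7 was lower in Cxcl9 LEC again, at 37.6, 47.2 and 87.6 CPM, against 139, 127 and 150 CPM in Cxcl10-only LEC (-1.14 ± 0.20, adjusted p = 0.00567). Histone genes made the largest falls. Hist1h2ae had no UMI in Cxcl9 LEC and 165, 49.1 and 33.1 CPM in Cxcl10-only LEC, where library 1 was the highest. Hist1h1b stood at 6.83, 0 and 8.42 CPM in Cxcl9 LEC, against 83.8, 68.7 and 81.9 CPM in Cxcl10-only LEC. Stmn1, a tubulin-binding protein of dividing cells, fell by 1.60 ± 0.19 (adjusted p = 0.000141). Of the cell cycle list 1 of 13 tested genes was lower and 0 higher, with 4 lower without the LEC with stromal UMIs. Stmn1 was among the 5 genes of that list higher than in negative LEC, none of which passed without library 3. Cells with 2 or more UMIs of Mki67 and Top2a made up 3.39% of Cxcl9 LEC (4 of 118) and 5.41% of Cxcl10-only LEC. The part of such cells in the falls of histone genes and Stmn1 was not tested.

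Against Ifit1 LEC, chosen for a type I interferon gene, 298 (3.08%) of 9664 tested genes were higher in Cxcl9 LEC and 94 (0.973%) lower, or 4.06% in both directions. With library totals in place of TMM scaling the split was 258 higher and 143 lower. Without library 3 the calls were 178 in all. All 6 tested class II genes were higher, with Cd74 at 1117, 1405 and 1055 CPM in Cxcl9 LEC, against 60.7, 207 and 153 CPM in Ifit1 LEC (3.27 ± 0.18, adjusted p = 7.33e-10). Of the GTPases 14 of 19 were higher and none lower, with 8 higher without library 1 and 9 with DESeq2. Of the NF-kB list 17 of 26 were higher and none lower, with 6 higher without library 1, 8 without library 3 and 6 with DESeq2. Irf1 rose by 0.86 ± 0.11 (adjusted p = 6.94e-05) and Ifngr1 by 0.77 ± 0.12 (adjusted p = 0.000498). In the type I list 3 of 32 genes were higher and 2 lower, with a median of -0.10. Without library 1 these were 0 higher and 10 lower of 31 (median -0.27), without library 3 0 and 1, with no filter on low counts 2 and 9, and with library totals 2 and 5. Ifit3b, an Ifit family member, stood at 113, 40.4 and 38.7 CPM in Cxcl9 LEC, against 139, 144 and 128 CPM in Ifit1 LEC (-1.14 ± 0.23, adjusted p = 0.00364). Ccl5, Calhm6 and Serpina3f rose most, by 5.98, 5.05 and 5.05, and Stmn2, Tgfbi and Foxp2, a forkhead transcription factor, fell most, by 1.93, 1.88 and 1.78. All 3 comparisons share the Cxcl9 LEC, so their values stand side by side and are not independent.

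**Figure D5:**
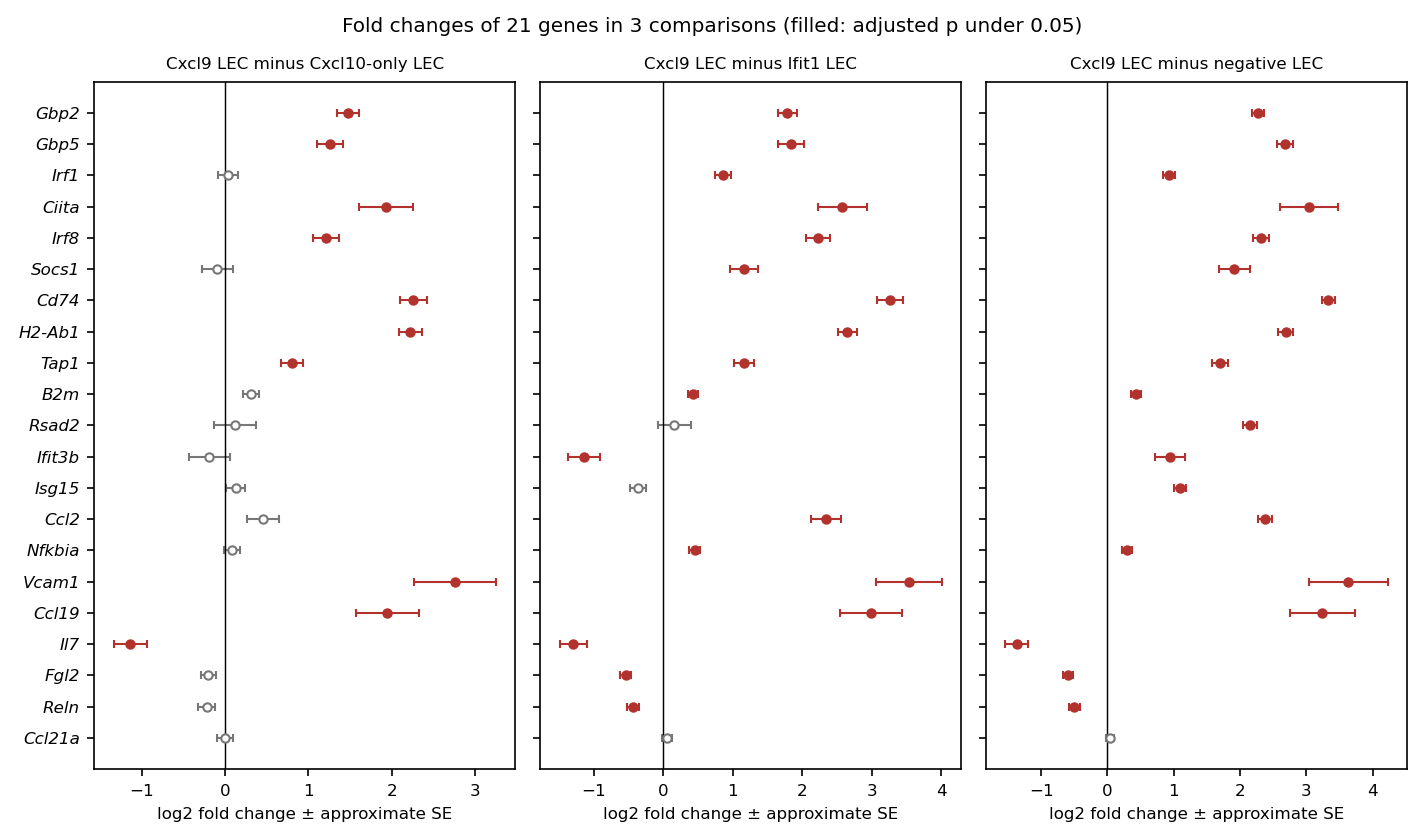
Log2 fold change with approximate SE of 21 genes in Cxcl9 LEC minus Cxcl10-only, Ifit1 and negative LEC (3 libraries each), filled where the edgeR adjusted p was under 0.05. Cd74, H2-Ab1, Gbp2 and Il7 pass in all 3 panels, Irf1 and Socs1 do not pass against Cxcl10-only LEC, and Ccl21a lies near 0 in each.

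The motifs shown in the printed promoters were counted in all promoters matched by symbol. An ISRE match was held by 14.6% of the 383 matched promoters of genes higher than in negative LEC and by 2.87% of the 209 of genes lower, against 3.09% of the 9545 of all genes tested. A GAS match was held by 11.7%, 5.26% and 6.85% of the same sets, and an NF-kB match by 18.8%, 9.57% and 10.4%. Of all 27025 promoters, 3.49% held an ISRE, 8.47% a GAS and 8.18% an NF-kB match. A match is a description of letters and not a bound site.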

How the data were processed

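Cells sorted from 3 pooled libraries of mouse small intestine were measured by 3′ droplet RNA sequencing. The submitters' processing notes name Cell Ranger 6.1.2, bcl2fastq 2.2 and the build mm10, without an annotation release. The deposited matrices hold raw UMI counts per gene and barcode, not normalized. The members and gene lists were chosen with earlier results of these data known. UMIs were summed per library and group of cells (28 or more Cxcl9 LEC per sum) and tested by the quasi-likelihood test of edgeR 4.0.16 (R 4.3.3) after TMM scaling and filterByExpr. The model blocked on library, since the 2 sums compared within a library share 1 pool of animals. P-values were adjusted by Benjamini-Hochberg over all genes tested, with a threshold of 0.05. The 7 genes of the rule, Cd274 and mitochondrial genes were not tested, nor Ifit1 against Ifit1 LEC. Approximate SEs were had by dividing the size of a log2 fold change by the root of its F statistic. No doublet caller was applied. The gate removed cells with Ptprc or Epcam UMIs, and 3 alternatives left out deep cells, cells with immune UMIs, or (chosen after seeing the data) cells with stromal UMIs. Other alternatives were DESeq2 1.42.0, other scaling, filters, depths and thresholds. Named genes were the 2 largest folds per list and direction that passed with 1 sign in 3 of 3 libraries and reached 20 CPM in the higher group, the 3 largest outside the lists, and 20 genes always named, plus those said to be singled out; members that illustrate a list's role were also named. 1 of the genes always named is not reported here. The test was tried on simulated counts. Gene positions and promoters came from GENCODE and RefSeq on GRCm38.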

Additional observations from a re-analysis of the deposited data

How the results depend on the processing

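The counts of genes that passed moved with the settings as follows (main counts 782 against negative LEC, 109 against Cxcl10-only LEC and 392 against Ifit1 LEC). Without the replicate block, the counts were 343 and 66 for the first pair of comparisons, and 276 against Ifit1 LEC. With DESeq2 they were 426, 39 and 190, with all cells thinned to 3000 UMIs 323, 35 and 133, with negative LEC of matched depth 435, and with no filter on low counts 220 against Cxcl10-only LEC. Leaving out 1 library each gave 213 to 582 calls against negative LEC, 123 to 217 against Cxcl10-only LEC and 178 to 326 against Ifit1 LEC, with the low values without library 3 and the high value of 217 without library 2. The share of Cxcl9 LEC among LEC was 0.395% after thinning, 0.490% with 5 or more Cxcl9 UMIs, 0.834% with 2 or more, and 0.611% to 0.724% with 1 library left out. Thinning moved the median log2 fold change of all genes against negative LEC to -0.15. Of 1562 values of named genes under alternatives, 1406 kept their direction and side of the threshold, 136 no longer passed, 15 newly passed and 5 reversed. The reversals were Fabp5 at -0.19 with 5 or more Cxcl9 UMIs and -0.036 without LEC with stromal UMIs, Flt1 at -0.83 with 5 or more, and Ly6a at -0.32 with 5 or more and -0.15 without the deepest 10% of LEC. Depth matching took the 5 nearest cells per Cxcl9 LEC, but 1 per Cxcl9 LEC among Cxcl10-only LEC, which were too few for 5. The cause of these changes was not tested, apart from fewer cells and genes entering the thinned, matched and smaller fits. With 28, 32 and 58 Cxcl9 LEC, genes seen in few of them rest on single cells.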
